A study of Drosophila melanogaster with 9 samples.

Results

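The 10 genes described here were chosen by their measured levels in all 9 libraries: nearly silent or lowest in ovaries of the null heterozygote, and higher in at least the mutant. They are GLaz, Hk, Hdc, Osi17, CG8170, CG42613, CG44153, CG42329, the antisense RNA gene asRNA:CR45600 and the annotated pseudogene CR41379. All 10 were matched by symbol to a FlyBase identifier, out of 17558 identifiers in the files, of which 8642 were tested. Polyadenylated RNA was sequenced from ovaries of Drosophila melanogaster, with 3-day-old flies, 10 females per library, kept at 25 °C, and 3 libraries for each of 3 genotypes. The mutant carried the alleles moe[NES] and moe[G0415] of Moesin, the NES heterozygote moe[NES] and a w[1118] chromosome, and the null heterozygote moe[G0415] and a w[1118] chromosome. Moesin tethers cortical actin to the cell membrane, and by its title the study concerns its part in heat shock gene expression. The mutant and the NES heterozygote are therefore the genotypes with moe[NES], and the mutant and the null heterozygote those with moe[G0415]. The labels give neither the origin of the autosomes nor the crosses behind the replicates, so every p-value rests on library-to-library spread, which may be technical.

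Several of these genes are best known outside the ovary. GLaz (Glial Lazarillo) encodes a secreted lipocalin, a small carrier of lipids, related to mammalian apolipoprotein D. Hk (Hyperkinetic) encodes the beta subunit of the Shaker voltage-gated potassium channel, and Hdc encodes histidine decarboxylase, the enzyme that makes histamine, the transmitter of fly photoreceptors. Osi17 belongs to the Osiris family, insect genes of which many are active in epithelia that secrete cuticle. No role is given here for the other 6.

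Libraries held 31.8 M to 43.6 M (1e6) counts. Levels are given in CPM, counts per 1e6 after TMM scaling, and a value after ± is the SD of the 3 libraries of a genotype. Moe was at 409 ± 28.3 CPM in the mutant, 694 ± 75 in the NES heterozygote and 388 ± 44.7 in the null heterozygote. Eggshell and yolk genes took 3.53% to 5.3% of counts in the mutant, 2.34% to 4.84% in the NES heterozygote, and 0.853%, 4.6% and 1.04% in null heterozygote replicates 1, 2 and 3. Null heterozygote replicates 1 and 3 thus stood apart from the other 7 libraries in this share, and replicate 2 did not. The 10 genes were low in replicate 2 as well, but the choice of genes used that library too, so this lends no support. The part of the eggshell and yolk share in their levels was not tested. In whole ovaries, fewer cells of a type and less RNA per cell cannot be told apart.

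GLaz was nearly as high in the NES heterozygote as in the mutant. It stood at 12.4, 14.5 and 12.8 CPM in the mutant replicates, 13.6, 10.6 and 14.0 in the NES heterozygote and 1.24, 2.63 and 0.709 in the null heterozygote. The mutant and NES heterozygote values were interleaved, and all lay above the null heterozygote. Set against null heterozygote replicate 2 alone, the means were 5.03 times higher in the mutant and 4.84 times higher in the NES heterozygote. GLaz lies on chromosome 2R from 13163959 to 13168032 (minus strand, BDGP6.54 annotation).

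Hk was stepped, highest in the mutant and lowest in the null heterozygote. Its levels were 69.1, 42.7 and 28.1 CPM in the mutant replicates, 23.7, 20.6 and 13.1 in the NES heterozygote and 0.633, 3.08 and 0.658 in the null heterozygote. No values of any pair of genotypes overlapped, although the lowest mutant library was close to the highest NES heterozygote library. Against null heterozygote replicate 2 alone, the means were 15.1 and 6.2 times higher in the mutant and the NES heterozygote. Hk is the 1 member on the X chromosome (10233347 to 10263485, minus strand), and its start lies 1.36 Mb from that of Moe.

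Hdc followed the same steps with a wider spread in the NES heterozygote. It was at 12.3, 6.11 and 11.7 CPM in the mutant, 0.646, 3.61 and 3.21 in the NES heterozygote and 0.0791, 0.324 and 0.0253 in the null heterozygote. NES heterozygote replicate 1 was nearer to the null heterozygote than to its own group, and it also had the lowest eggshell and yolk share of its group, 2.34%; the part of that share in the result was not tested. Hdc lies on 2R from 10237988 to 10246077 (plus strand).

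Osi17 had 0 counts in all 3 null heterozygote libraries. It was at 2.95, 1.22 and 3.01 CPM in the mutant and 0.225, 1.1 and 0.466 in the NES heterozygote. With a floor of 3 counts over the null heterozygote (0.0277 CPM), Osi17 in the mutant was at least 87.6-fold higher, and in the NES heterozygote at least 21.2-fold higher. The lowest mutant library was just above the highest NES heterozygote library. Osi17 lies on 3R from 6311772 to 6327308 (plus strand), among other Osiris genes.

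CG8170 was also at 0 counts in the null heterozygote, but the other genotypes overlapped. It was at 2.15, 0.899 and 2.72 CPM in the mutant and 1.01, 2.19 and 1.43 in the NES heterozygote. The lowest of these 6 values was a mutant library, and it was still well above the floor of 0.0277 CPM. CG8170 lies on 2R from 9019032 to 9031045 (minus strand).

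CG42613 was close to level between the high genotypes. It was at 3.69, 3.17 and 4.2 CPM in the mutant, 2.87, 3.52 and 2.51 in the NES heterozygote and 0.185, 0.0324 and 0.101 in the null heterozygote. The null heterozygote total was 12 counts, against 448 in the mutant, a ratio of 33.4 (95% counting interval 18.9 to 65.1), and 307 in the NES heterozygote, a ratio of 26.7 (15.1 to 52.3). Such intervals cover counting error only. The gene spans 3R from 18929196 to 18978088 (plus strand) and encloses CG43732, which had 0 counts in all libraries.

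CG44153 varied most among the mutant libraries. It was at 2.66, 1.72 and 6.17 CPM in the mutant, 0.702, 1.78 and 1.37 in the NES heterozygote and 0.0264, 0.13 and 0.076 in the null heterozygote. Mutant replicate 3 stood above the other mutant libraries, and mutant replicate 2 lay just under the highest NES heterozygote library. The gene, the longest of the 10, spans 2L from 10064121 to 10180256 (minus strand).

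CG42329 was clear of the NES heterozygote in all mutant libraries. It was at 1.87, 3.44 and 3.23 CPM in the mutant, 0.449, 0.622 and 1.43 in the NES heterozygote and 0, 0.0324 and 0.101 in the null heterozygote, where it had 5 counts in all. The nearest values of the mutant and the NES heterozygote, 1.87 and 1.43 CPM, were less far apart than the lowest and highest libraries of either group. CG42329 lies on 2L from 1219293 to 1229802 (plus strand).

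Both noncoding members were near the detection limit in the null heterozygote. The antisense RNA asRNA:CR45600 (3R, 15136985 to 15140121, minus strand) was at 3.65, 2.91 and 3.31 CPM in the mutant and 1.24, 1.42 and 2.3 in the NES heterozygote, and it had 1 count in each null heterozygote library. Its mutant values lay above all NES heterozygote values. The pseudogene CR41379 (2R, 1806864 to 1807342, minus strand) was at 1.08, 0.978 and 1.31 CPM in the mutant, 1.12, 0.888 and 1.37 in the NES heterozygote and 0, 0.0324 and 0 in the null heterozygote, 1 count in all. Its high groups were interleaved, and reads of a pseudogene can be shared with a related gene, so its count is uncertain.

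**Figure D1:**
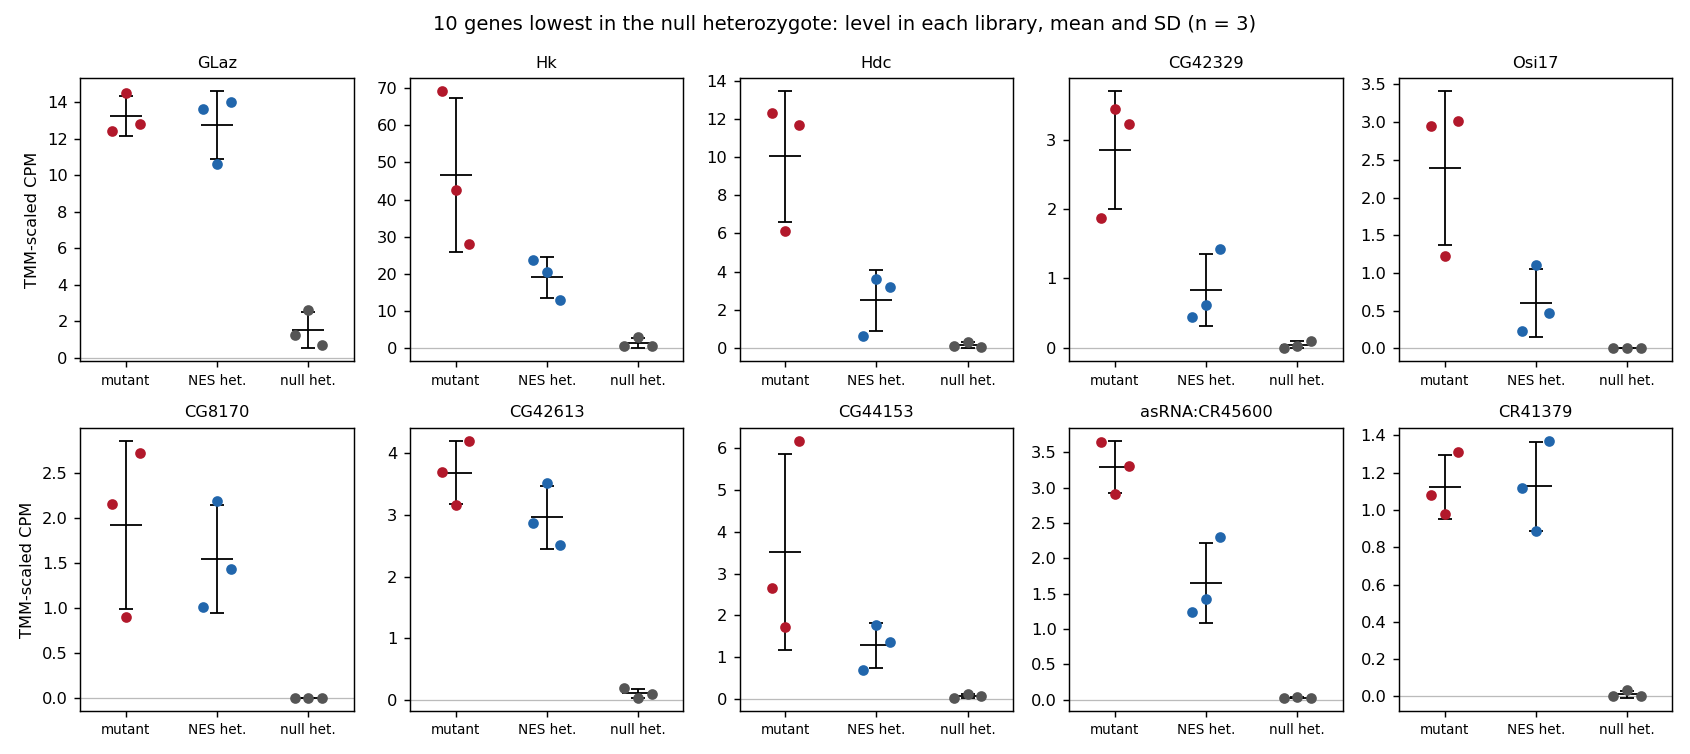
Each panel plots 1 gene: TMM-scaled CPM (vertical axis, linear) in each library of the mutant, the NES heterozygote and the null heterozygote, with the group mean and SD as bars (n = 3). The null heterozygote libraries are lowest in every panel; for GLaz, CR41379, CG8170 and CG42613 the mutant and NES heterozygote points are interleaved, and for Osi17, Hdc, Hk, CG42329 and asRNA:CR45600 the mutant points are above.

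Divided by exon length, the mutant levels ranged from 10.9 CPM per kb for GLaz, through 4.35 for Hk, 2.63 for Hdc, 2.34 for CR41379, 1.15 for CG42329 and 1.13 for asRNA:CR45600, to 0.588 for Osi17, 0.492 for CG8170, 0.481 for CG44153 and 0.423 for CG42613. On that scale GLaz was also highest in the NES heterozygote (10.5 CPM per kb) and in the null heterozygote (1.26 CPM per kb). The last 4 genes, Osi17 to CG42613, did not differ in the mutant beyond the spread of their libraries.

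These levels are what chose the genes, so their differences from the null heterozygote are a description with no test of their own. All 10 were past the adjusted p of 0.05 in the mutant against the null heterozygote, where 0.822% of all genes tested were past it and higher, and 6 of 10 in the NES heterozygote against the null heterozygote, where 0.44% of all genes were. DESeq2 called 10 of 10 in each of these comparisons. The choice of genes favoured these counts in advance, so they lend no support to the differences. All 10 passed the filter on low counts, 8 of them only through the groups in which they are high; GLaz and Hk had more than 10 counts in each null heterozygote library too. A fit was also run without null heterozygote replicates 1 and 3, which leaves 1 library in that group, assumed to vary like the others. Without those replicates the fitted median log2 fold change of the 10 was 5.63 in the mutant and 4.75 in the NES heterozygote. With all libraries it was 6.03 and 4.45. These medians include the genes at 0 counts, whose fitted values depend on the prior count. They rest on the levels that chose the genes, so they too are a description and lend no support. Of all genes, 26 (0.301%) were higher in both comparisons, which share the null heterozygote libraries, and 6 of these were members.

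Whether the mutant and the NES heterozygote have equal levels is the question that the choice of genes did not settle. In the edgeR quasi-likelihood fit over all 9 libraries, 0 of 10 members passed the adjusted p of 0.05 between the mutant and the NES heterozygote, where 0.972% of all genes did. DESeq2 also called 0. The genes are described below in 2 sets by the size of the difference, a split made after the values were seen. The intervals of the sets overlap, and no test separates them. Because the choice asked that the mutant be high and not that the NES heterozygote be, it favours genes higher in the mutant.

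In the first set the mutant and NES heterozygote means were within 1.24-fold of each other. The log2 fold change of mutant over NES heterozygote was -0.01 for CR41379 (95% interval -0.95 to 0.94), 0.06 for GLaz (-0.76 to 0.87), 0.31 for CG42613 (-0.45 to 1.08) and 0.32 for CG8170 (-0.88 to 1.52). The intervals of CR41379 and GLaz lie inside 1 log2 unit on either side, those of CG42613 and CG8170 do not. None of the 4 intervals shows that the levels are equal.

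In the second set the mutant mean was higher by 1.99-fold or more. The log2 fold change was 2.02 for Hdc (95% interval 0.46 to 3.57), 2.0 for Osi17 (0.44 to 3.57) and 1.77 for CG42329 (0.42 to 3.12). It was 1.45 for CG44153 (0.18 to 2.73), 1.29 for Hk (0.06 to 2.51) and 0.99 for asRNA:CR45600 (0.35 to 1.63). These 6 had unadjusted p under 0.05, as had 6.85% of all genes in that direction. Over all genes tested, the edgeR adjusted p of the 10 members lay between 0.196, for asRNA:CR45600, and 0.994, for CR41379.

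The groups did not overlap for 5 of the 10, all higher in the mutant: Hdc, Osi17, CG42329, Hk and asRNA:CR45600. Of all genes tested, 13.5% were higher in the mutant with no overlap. The median log2 fold change of the members was 1.14, with 9 of 10 positive, beside 0.002 and 50.4% positive over all genes. As the choice favours genes higher in the mutant, neither comparison with all genes is a test of the members. The value of CG44153 rested on mutant replicate 3: without that library it was 0.77. That of Hk fell to 0.89 without mutant replicate 1.

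**Figure D2:**
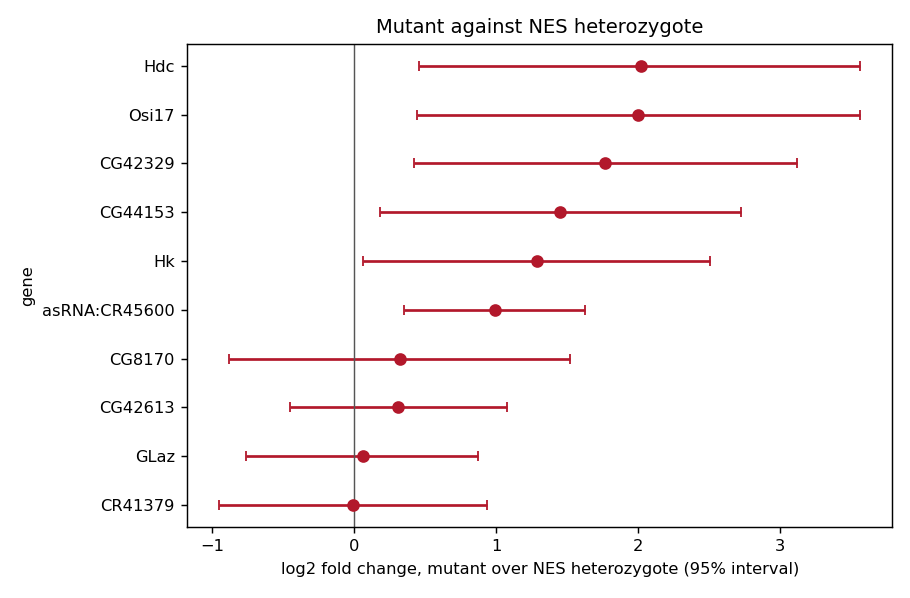
Log2 fold change of the mutant over the NES heterozygote (horizontal axis) for the 10 genes, with 95% intervals from the edgeR fit across 8642 genes. The upper 6 genes, from Hdc at 2.02 to asRNA:CR45600 at 0.99, have intervals above 0; the intervals of CG8170, CG42613, GLaz and CR41379 include 0. No gene passed the adjusted p of 0.05.

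The order of libraries inside a group was not the same for all members. Mutant replicate 2 was the lowest mutant library for 7 of 10 members, and 36.3% of all genes tested were lowest there. NES heterozygote replicate 1 was the lowest of its group for 6 of 10, beside 38.4% of all genes. Null heterozygote replicate 2 was the highest of its group for 6 of 10, beside 47.6% of all genes. CG8170 and Osi17, at 0 counts throughout that group, have no order there. For asRNA:CR45600 and CR41379, which are among the 6, the order rests on at most 1 count per library. Mutant replicate 2 and NES heterozygote replicate 1 had the lowest eggshell and yolk share of their groups, 3.53% and 2.34%. Null heterozygote replicate 2 had the highest of its group, 4.6%. Osi17, CG8170, CG44153 and Hdc followed the order of that share over the NES heterozygote libraries, and the other members did not. The part of that share in the members' levels was not tested.

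The protein-coding gene CG6912, next to and in part under asRNA:CR45600, had the same pattern and was no member. It lies on 3R from 15135138 to 15137004 on the minus strand, and its annotated start overlaps the end of asRNA:CR45600 by 20 bases. CG6912 was at 6.38, 4.33 and 4.67 CPM in the mutant, 2.67, 3.29 and 3.56 in the NES heterozygote and 0.422, 0.422 and 0.633 in the null heterozygote. It rose by 3.37 on the log2 scale in the mutant (SE 0.28, edgeR adjusted p = 0.00134) and by 2.67 in the NES heterozygote (SE 0.28, adjusted p = 0.00374) against the null heterozygote. Its log2 fold change of 0.69 between the mutant and the NES heterozygote (95% interval 0.13 to 1.26, edgeR adjusted p = 0.344) did not pass, although those groups did not overlap either. Without null heterozygote replicates 1 and 3 the NES heterozygote call was lost (2.89, adjusted p = 0.0548) and the mutant call was kept (3.58, adjusted p = 0.0352).

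The genes on the other strand of the same stretch did not show this pattern. CG3984, which lies inside asRNA:CR45600 on the plus strand, had 0 counts in all 9 libraries. CG3987, which overlaps its other end by 164 bases on the plus strand, was at 0.888, 0.634 and 1.43 CPM in the mutant, 0.337, 0.503 and 0.379 in the NES heterozygote and 0.606, 0.487 and 0.253 in the null heterozygote, and passed in 0 of the comparisons by edgeR. Its unadjusted p was under 0.05 in the mutant against either heterozygote. The strand setting of the counting is not given in the sources used here, so reads of overlapping genes may be assigned to either.

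**Figure D3:**
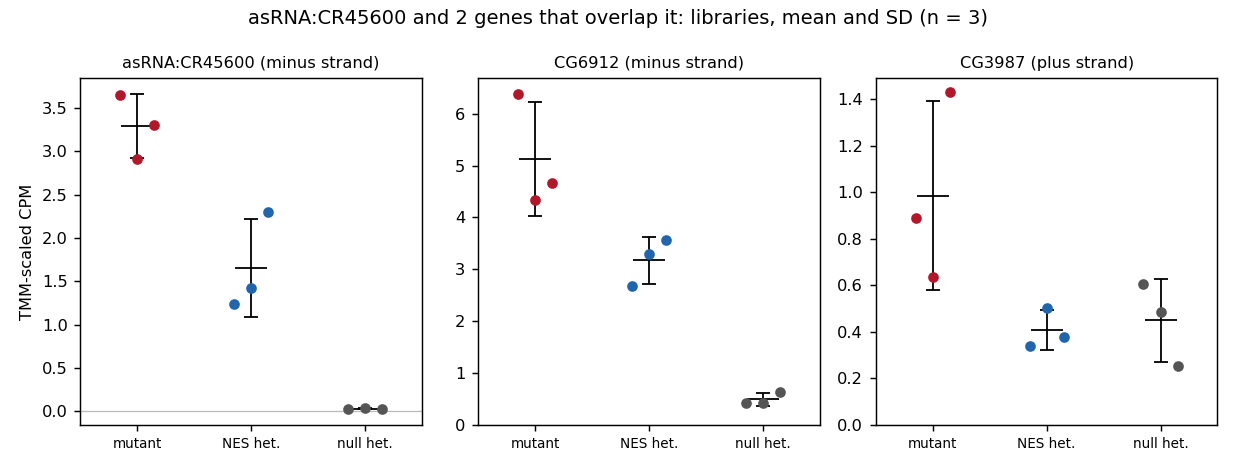
TMM-scaled CPM (vertical axis, linear) of asRNA:CR45600 and of CG6912 and CG3987, which overlap it, in each library of the 3 genotypes, with mean and SD (n = 3). asRNA:CR45600 and CG6912 are lowest in the null heterozygote and highest in the mutant; CG3987 is not lower in the null heterozygote than in the NES heterozygote.

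Of 13 annotated genes that overlap a member, 3 passed the filter on low counts, CG6912, CG3987 and CG4839. CG4839, which lies inside CG44153 on the opposite strand, was at 6.17, 8.25 and 11.8 CPM in the mutant, 2.78, 4.38 and 7.11 in the NES heterozygote and 4.03, 3.37 and 2.96 in the null heterozygote. Mutant replicate 3 was its highest library, as it was for CG44153. Its log2 fold change of 1.34 in the mutant against the null heterozygote (SE 0.36, edgeR adjusted p = 0.139) did not pass, but DESeq2 called it.

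Genes that flank the members without overlapping them did not pass in edgeR. The 3 nearest annotated genes on either side were taken for each member, and 30 of them were tested. In the mutant against the null heterozygote 0 of 30 were called by edgeR, with 7 at an unadjusted p under 0.05, all higher, and 3 by DESeq2, namely Sur, CG2961 and CG34221. In the NES heterozygote against the null heterozygote 0 were called by edgeR or DESeq2, with 2 at an unadjusted p under 0.05. Between the mutant and the NES heterozygote 0 were called by either, with 3 at an unadjusted p under 0.05 in edgeR, all higher. Of all genes tested, 6.85% were at such a p and higher between the mutant and the NES heterozygote. That share is not given here against the null heterozygote, so the counts of neighbours there have no reference. The median log2 fold change of the 30 was 0.12, 0.04 and 0.09 in these comparisons, beside medians of 0, -0.003 and 0.002 over all genes.

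The nearest tested neighbour of a member overlapped between the NES heterozygote and the null heterozygote in all 10 cases, and between the mutant and the null heterozygote in 5. Among those that overlapped, euc, 185 bases from CG42613, was at 0.188 ± 0.0733 CPM in the mutant, 0.231 ± 0.15 in the NES heterozygote and 0.231 ± 0.11 in the null heterozygote. Glys, the glycogen synthase gene 1722 bases from asRNA:CR45600, was at 386 ± 15.7, 398 ± 18.9 and 389 ± 20.9 CPM in the same genotypes, and Nrk, a receptor kinase gene 475 bases from GLaz, at 3.1 ± 0.762, 1.96 ± 0.242 and 2.11 ± 0.659. Hr3, a nuclear receptor gene 640 bases from Hdc, was at 12.1 ± 2.59, 7.52 ± 5.77 and 5.62 ± 7.58 CPM, and PPO2, a prophenoloxidase gene near CG8170, at 0.172 ± 0.154, 0.253 ± 0.338 and 0.229 ± 0.154. These neighbours were thus not low in the null heterozygote beyond the spread of its libraries.

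The other 5 were higher in every mutant library than in the null heterozygote: CG2961, Sur, Osi19, CG5397 and CG41520. The share of all genes with this order is not given here, so the count does not set neighbours apart from other genes. CG5397, near CG42329, was at 3.0 ± 0.312 CPM in the mutant, 2.02 ± 0.697 in the NES heterozygote and 1.98 ± 0.263 in the null heterozygote, and CG41520, near CR41379, at 1.31 ± 0.441, 0.822 ± 0.407 and 0.424 ± 0.261. Next to Hk, CG2961 was at 19.8, 10.9 and 14.0 CPM in the mutant, 7.53, 10.5 and 6.73 in the NES heterozygote and 6.04, 10.2 and 7.39 in the null heterozygote. Sur, the sulfonylurea receptor gene next to CG44153, was at 10.3, 7.98 and 11.5 CPM in the mutant, 5.03, 8.59 and 6.5 in the NES heterozygote and 2.32, 5.22 and 1.62 in the null heterozygote, with a log2 fold change of 1.71 in the mutant against the null heterozygote (SE 0.42, edgeR adjusted p = 0.108). For CG2961 and Sur null heterozygote replicate 2, whose eggshell and yolk share was 4.6%, was the highest of its group.

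A pair of flanking genes had unequal counts at low levels and is named after its values were seen. CG15870 begins 11 bases past the end of GLaz on the same strand and did not pass the filter. It had 36 counts in the mutant, 23 in the NES heterozygote and 0 in the null heterozygote. CG34221, 38277 bases from Hdc, had 63 counts in the mutant, 9 in the NES heterozygote and 7 in the null heterozygote, so its low genotypes were both heterozygotes.

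**Figure D4:**
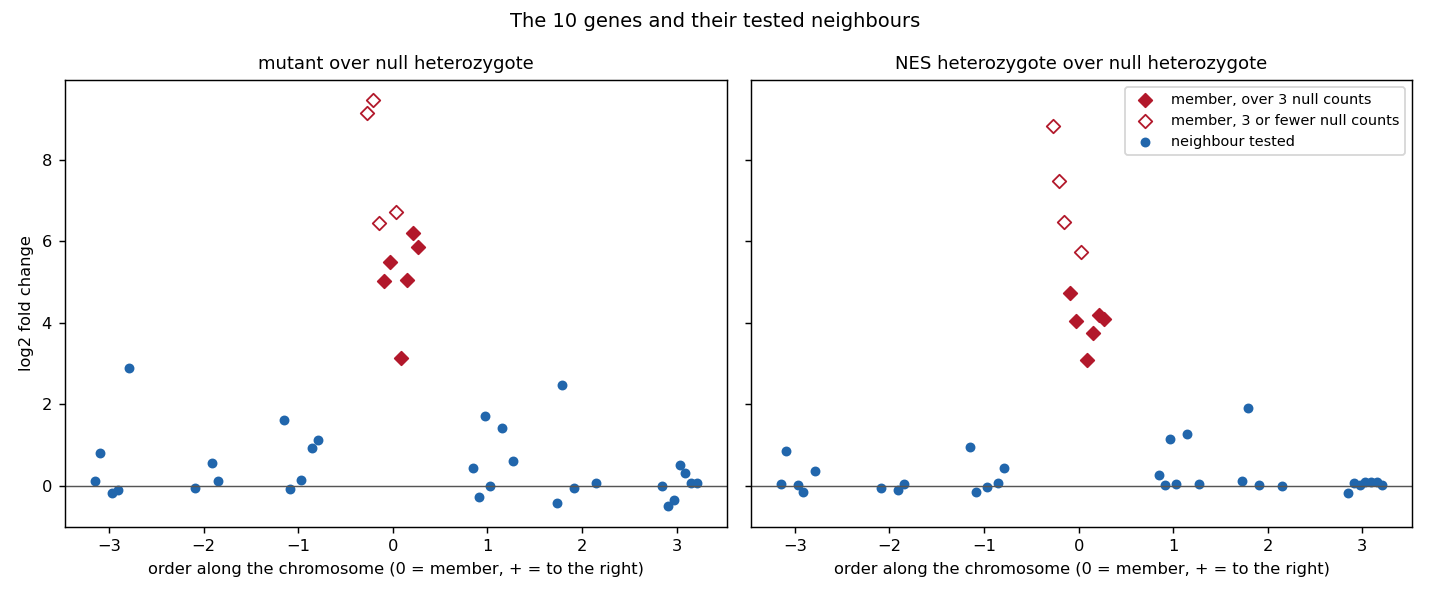
Log2 fold change against the null heterozygote (vertical axis) of the 10 members at position 0 and of their tested neighbours at positions 1 to 3 on either side, in order along the chromosome, for the mutant (left) and the NES heterozygote (right). Members (diamonds) lie between 3.13 and 9.47 in the mutant and between 3.08 and 8.84 in the NES heterozygote; open diamonds have 3 or fewer counts in the null heterozygote, and their fitted values depend on the prior count. Neighbours (circles) lie between -0.51 and 2.89 in the mutant and between -0.18 and 1.92 in the NES heterozygote.

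No other tested gene of the members' families passed in edgeR, though the 3 Osiris genes tested were positive against the null heterozygote. Over the Osiris, lipid transport, potassium channel and biogenic amine lists without the members, 34 genes were tested and 0 were called by edgeR in any of the 3 comparisons. At an unadjusted p under 0.05 there were 8 in the mutant against the null heterozygote, 4 higher and 4 lower, 4 in the NES heterozygote against the null heterozygote and 2 between the mutant and the NES heterozygote. DESeq2 called 0, 1 and 0 of the 34 in these comparisons, the 1 being the potassium channel gene sand, lower in the NES heterozygote.

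Of 21 other Osiris genes matched, 8 had 0 counts in all libraries and 3 were tested. Osi19, 8054 bases from Osi17, was at 4.0, 3.67 and 8.0 CPM in the mutant, 0.506, 8.62 and 1.6 in the NES heterozygote and 0.0527, 2.69 and 0.152 in the null heterozygote. Its log2 fold change of 2.47 in the mutant against the null heterozygote had an edgeR adjusted p of 0.349. The order of the libraries of Osi19 followed their eggshell share within each heterozygote, with replicate 2 highest, and the part of that share was not tested. In the mutant, the NES heterozygote and the null heterozygote, Osi2 was at 0.683, 0.648 and 0.543 CPM. Osi8 was at 0.286, 0.318 and 0.0713 CPM in the same order. Against the null heterozygote, its log2 fold changes were 2.03 in the mutant and 2.19 in the NES heterozygote (edgeR adjusted p = 0.239 and 0.323). All 3 tested were positive in both comparisons, with medians of 2.03 in the mutant and 1.92 in the NES heterozygote. Without null heterozygote replicates 1 and 3 these medians were 0.79 and 0.4.

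Lipid transport genes gave 8 tested beside GLaz, with a median log2 fold change of 0.21 in the mutant and 0.13 in the NES heterozygote against the null heterozygote. The lipophorin receptor gene LpR2 was at 425, 418 and 382 CPM in the mutant, the NES heterozygote and the null heterozygote. In the same order, the lipid transfer gene Mtp was at 97.8, 96.5 and 106. The megalin gene mgl was at 116 ± 24.3, 80.9 ± 10.3 and 71.5 ± 30.1, and the apolipophorin gene apolpp at 34.6, 37.3 and 38.1. The other fly Lazarillo gene, NLaz, named after its values were seen, was at 23.9 ± 3.98 CPM in the mutant, 20.9 ± 8.26 in the NES heterozygote and 13.8 ± 16.0 in the null heterozygote (n = 3 each). The NLaz groups overlapped, unlike those of GLaz against the null heterozygote. Lipid transport medians turned to -0.09 in the mutant and -0.3 in the NES heterozygote without null heterozygote replicates 1 and 3.

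Potassium channel genes gave 13 tested beside Hk. The 4 highest were Ork1, Irk1, SLO2 and sei. Ork1 was at 179 ± 19.3, 150 ± 27.2 and 130 ± 64.4 CPM in the mutant, the NES heterozygote and the null heterozygote. In the same order, Irk1 was at 69.7, 69 and 82.2, SLO2 at 63.8, 56.8 and 56.1, and sei at 17.2, 17.5 and 21.3. The list had a median log2 fold change of 0.51 in the mutant and 0.02 in the NES heterozygote against the null heterozygote, and these turned to -0.09 and -0.28 without null heterozygote replicates 1 and 3. Sh, the channel subunit that Hk binds, named after its values were seen, was too low to test, at 0.124, 0.0194 and 0.0389 CPM in the mutant, the NES heterozygote and the null heterozygote.

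Biogenic amine genes gave 10 tested beside Hdc, with a median log2 fold change of 0.31 in the mutant and 0 in the NES heterozygote against the null heterozygote. Without null heterozygote replicates 1 and 3 these were -0.2 and -0.5. The aromatic amino acid decarboxylase-like gene amd was at 31.2 ± 10.7, 22.9 ± 9.87 and 15 ± 18.1 CPM in the mutant, the NES heterozygote and the null heterozygote. Its null heterozygote libraries were at 5.14, 35.8 and 3.92 CPM. Vmat, the vesicular monoamine transporter, was at 6.73, 7.49 and 5.83 CPM in the same order, Pu, of pteridine synthesis, at 3.24, 2.38 and 2.45, and Tdc1, a tyrosine decarboxylase, at 2.11, 1.85 and 2.04. None passed.

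The 8 neuronal markers matched summed to 2.8 to 4.0 CPM in the mutant, 2.72 to 3.26 in the NES heterozygote and 2.0 to 4.22 in the null heterozygote, and VGlut and Gad1 were at 0 counts in all libraries. The sum was mostly elav, at 2.44, 2.32 and 2.41 CPM in the mutant, the NES heterozygote and the null heterozygote. Syn, the synapsin gene, had the order of the members: it was at 0.608, 0.476 and 0.741 CPM in the mutant, 0.253, 0.237 and 0.408 in the NES heterozygote and 0.158, 0.0973 and 0.0506 in the null heterozygote, with no overlap between genotypes. Its log2 fold change of 2.54 in the mutant against the null heterozygote had an edgeR adjusted p of 0.0513. All 3 neuronal markers tested were positive in that comparison, with a median of 1.38, and 0 of 3 passed. The 8 glial markers summed to 53.4 to 72.1 CPM in the mutant, 36.5 to 63.7 in the NES heterozygote and 34.9 to 65.2 in the null heterozygote, and repo, the defining marker of glia, was at 0.0156, 0.0494 and 0.0385 CPM in the mutant, the NES heterozygote and the null heterozygote. Eaat1, a glutamate transporter gene of glia, was at 4.82, 4.43 and 2.11 CPM in these genotypes, with the null heterozygote below both others, but did not pass (log2 fold change 1.2 in the mutant, edgeR adjusted p = 0.211). The part of nerve and glial cells in the members' levels was not tested. Muscle markers summed to 98.8 to 181 CPM in the mutant, 62.6 to 115 in the NES heterozygote and 67.7 to 132 in the null heterozygote. The ranges of the summed levels overlapped between all 3 genotypes in these 3 lists. Ovary markers were present throughout, with osk, an oocyte RNA, at 1790, 1620 and 1620 CPM.

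Genes outside the set with the most similar profile were found by correlation of log2(CPM + 0.5) with the mean scaled profile of the members over the 9 libraries, among 7296 genes of at least 1 CPM. Among the first were Nepl21 (r = 0.985), CG6912 (0.983), Hsdl2 (0.982) and Cap-H2 (0.970). The 9 libraries share their genotype steps, so r is a description. Nepl21, of the neprilysin-like peptidases, was at 12.2, 8.66 and 1.8 CPM in the mutant, the NES heterozygote and the null heterozygote. Cap-H2, a condensin II subunit gene, was at 38.2, 34.6 and 24.7 CPM in these genotypes, and Hsdl2 at 135, 116 and 85.1 CPM. These genes share the order of the genotypes with the members, while their folds differ widely.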

How the data were processed

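Read counts per gene were used as deposited. Per the submitters' processing notes, the authors' tools were Trimmomatic 0.36, FastQC, HISAT2 2.0.4, SAMtools 0.1.19 and HTSeq, with the build BDGP6; for annotation release, strand setting and reads with several matches the entry is: not given in the sources used here. The kit was a stranded mRNA kit, per the labels' protocols. No entry without a gene name was present. Genes were named and placed with the Ensembl BDGP6.54 annotation, which matched 17252 of 17558 identifiers; the other 306 held 5.00% of counts.

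From the counts, edgeR 4.0.16 (R 4.3.3) kept genes by filterByExpr (minimum count 10, minimum total 15), scaled libraries by TMM and fitted 1 coefficient per genotype over all 9 libraries with quasi-likelihood tests. P-values were adjusted by Benjamini-Hochberg over 8642 genes, with a threshold of 0.05. The SE was taken from the log2 fold change and F, and 95% intervals from the t distribution with the fit's degrees of freedom. The scripts were tested on simulated data. No libraries were duplicates. Same-numbered libraries did not deviate together in every pair, so the numbers were not used as pairs. Alternatives were DESeq2 1.42.0, other scalings and filters, fits of only the groups compared, a replicate block, and fits without libraries.

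The members and gene lists were chosen with earlier results of these data known. Beside the members, the text names genes that overlap one, the nearest tested neighbour of a member where no neighbour passed, up to 4 genes of highest level in each family list, and the 5 genes of most similar profile, 1 of which is not reported here. The markers elav, Syn and Eaat1, and others as stated beside them, were named after their values were seen. Lrp1, Lovit, nos and a few other listed symbols were not matched. No sequences are shown.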

Additional observations from a re-analysis of the deposited data

How the results depend on the processing

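Between the mutant and the NES heterozygote, 0 of the members tested passed the threshold under every alternative run, beside 84 genes in all; with a mean of at least 5 CPM only GLaz and Hk among them were testable. The counts for the mutant against the NES heterozygote, the mutant against the null heterozygote and the NES heterozygote against the null heterozygote were 84, 108 and 72 in edgeR. They were 345, 552 and 341 by DESeq2, 27, 61 and 33 with a mean of at least 5 CPM, and 145, 51 and 10 with only the groups compared. With a replicate block they were 34, 59 and 38, and without null heterozygote replicates 1 and 3 they were 147, 21 and 35. Leaving out 1 library gave 29 to 266, 26 to 3666 and 34 to 776, the highest each time without null heterozygote replicate 2. The causes were not tested.

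Small differences between the mutant and the NES heterozygote turned sign. The log2 fold change of CR41379 ranged from -0.153 to 0.149 over single libraries left out, being 0.02 without mutant replicate 1, 0.079 without mutant replicate 2 and 0.149 without NES heterozygote replicate 3. That of GLaz ranged from -0.06, without NES heterozygote replicate 2, to 0.12, and was -0.015 without mutant replicate 2. That of CG8170 ranged from -0.015, without mutant replicate 3, to 0.656. Larger differences moved as well. Osi17 ranged from 1.61, without NES heterozygote replicate 1, to 2.78, without NES heterozygote replicate 2. CG42329 ranged from 1.47, without NES heterozygote replicate 1, to 2.40, without NES heterozygote replicate 3. CG44153 ranged from 0.77, without mutant replicate 3, to 1.78, and Hk from 0.89, without mutant replicate 1, to 1.55. Hdc ranged from 1.56 to 2.385 and asRNA:CR45600 from 0.82 to 1.3. Over all alternatives the adjusted p of the 6 genes with larger differences lay between 0.0608 and 0.929. CG6912 in the NES heterozygote against the null heterozygote had an adjusted p of 0.0513 with only the groups compared. Counts of 0 to 5 in the null heterozygote limit any fold against it.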

Other observations

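Of the 26 genes higher than the null heterozygote in both other genotypes, 11 lie on 2R, 10 on 3R, 4 on the X, 1 on 2L and 0 on 3L, while 2R holds 19.6% of the genes tested, 3R 23.7%, the X 17.3%, 2L 17.1% and 3L 18.8%. The 10 members lie on 2R (4), 3R (3), 2L (2) and the X (1). Of the 26 genes, 6 are members. Some of the 26 lie close together, such as GstE1, GstE6 and GstE9 on 2R and Cap-H2 and TfIIFbeta on 3R. The counts by chromosome are thus not counts of independent genes.

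In the reference annotation, CG44153 and CG42329 each hold a copy of the blood retrotransposon, of 7413 and 7409 bases. This was looked at after the values were seen. Of all genes tested, 11 (0.13%) have a span that overlaps a copy of at least 5 kb, the 2 members included. CG4839, also counted, overlaps an end of the copy in CG44153. The others differed in the mutant against the null heterozygote. Their log2 fold changes were 1.34 for CG4839, 1.11 for chinmo, 0.69 for CG30116, 0.06 for heph and 0.01 for Tsp39D. They were -0.03 for Plc21C, -0.14 for dnt, -0.55 for CG43163 and -1.25 for lncRNA:flam. Elements of any family overlap 3 members, beside 8.82% of all genes. The annotation describes the reference strain, and whether the copies are present in these flies was not tested.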
